A study of Mus musculus with 30 samples.

Results

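The genes described here encode proteins of the cytosolic ribosome. A gene was taken as a member when the platform annotation gave its probe set a single symbol of the form Rpl or Rps followed by a number, with at most a closing a, x, y or l, or the symbol Rplp followed by a digit, or Rpsa. Where several probe sets had the same symbol, the brightest one represented the gene, going by means of 30 arrays. The rule found 33 genes among the 8251 genes measured, 16 of the large subunit and 17 of the small subunit, on 47 probe sets. A further 38 probe sets carry a ribosomal protein symbol together with other symbols and were left out, so that genes such as Rps6 and Rpl3 are not among the members.

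Ribosomal proteins assemble with ribosomal RNA into a small subunit, which decodes the messenger RNA, and a large subunit, which joins the amino acids. The messenger RNAs of most of them begin with a run of pyrimidines, the 5′ terminal oligopyrimidine motif, through which mTOR and the binding protein LARP1 govern their translation. In heart muscle, growth of the myocyte goes along with the making of ribosomes, and messenger RNA levels as measured here do not show how much protein is made from them.

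The tissue was left ventricle of C57BL/6 mice aged 2 months. The mice carried a genotype labelled HCM or were wild type, ate a casein-based or a soy-based diet, and were female or male. HCM is not spelled out in the labels. It commonly abbreviates hypertrophic cardiomyopathy, and the labels name neither the mutation nor a promoter, so the cells that carry it are not stated. Each sample pooled RNA from 2 animals, so that p-values measure the spread between pooled samples and not between single animals. The casein HCM, casein wild-type and soy wild-type groups had 4 arrays in each sex, and the soy HCM groups had 3 arrays in each sex. All values are log2 expression, and differences between groups are given on the same scale with standard errors. A difference passed when its Benjamini-Hochberg adjusted p in limma, over all 8251 genes, was under 0.05.

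The 7 measured cardiomyocyte markers (Actc1, Atp2a2, Myh6, Myl2, Ryr2, Tnni3 and Tnnt2) averaged between 11.49 and 12.44 on every array. The labels name no processing batches. Array sets were therefore defined here as the combinations of diet and genotype, with the casein wild-type arrays divided into replicates 1 and 2 and replicates 3 and 4, which differed in the hybridization controls (BioD minus BioC from 3.33 to 3.71 and from 1.77 to 1.99). That control does not separate all sets, since soy wild-type arrays gave 3.12 to 3.36. The bacterial control Dap, which is added to RNA before labelling where it is used, read 8.22 or more on the 8 casein HCM arrays and 5.02 or less on the other 22. Sets defined in this way hold 1 diet and 1 genotype each, so a difference between sets and one of diet or genotype cannot be told apart. Calls are also given from a fit with the set as a random block, where the correlation within sets was 0.167. That fit cannot separate a set from its diet and genotype either, because each group already has its own coefficient. Within a group only the casein wild-type arrays are divided between sets. Passing in that fit does not show that a difference is free of a set effect. Male soy wild-type replicate 2 was the lowest array of its group. The median deviation of the 17 brighter members from their means, defined below, was -0.73 on it, against -0.23, -0.29 and -0.48 on the others. It was not among the outlying values flagged at the end.

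The bases around the start of transcription are shown for some of the members named in the results, because these letters would carry the pyrimidine motif. The RefSeq promoter table (build GRCm38.p6) held 26 of the 33 members, each with 250 bases before and 50 after a listed start. Each line has 14 bases before the start and 16 from the start on, 5′ to 3′ on the strand of the gene. Capitals mark a run of C and T of at least 8 bases that reaches within 5 bases of the start.
Rpl7a, chr2:26910793-26910822, plus strand: TTCCCTCTTCTTTCTTTCTCCagcagccga
Rps10, chr17:27635229-27635258, minus strand: cgccgcgcacgCCCCTTCCTTTCCagcctc
Rps18, chr17:33955650-33955679, minus strand: acgtcacttccgCTCTCTCTTCCacaggag
Rpl13a, chr7:45128730-45128759, minus strand: aaaccctgcgacaagaCCTCCTCCTTTCCC
Rpl38, chr11:114668566-114668595, plus strand: gcggaagcctcgTTCTTTCCCCgttctctt
Rpl35a, 1 of 3 listed starts, chr16:33056468-33056497, plus strand: cggggcttgCCTTCCTCTTTCCgccatctt
Rps27l, 1 of 2 listed starts, chr9:66946072-66946101, plus strand: caCTCCTCCCCgccgcctctatcccggaag
Rpl41, chr10:128549153-128549182, minus strand: acacgggccggctcggaagtgacgacaccg
Rps4x, chrX:102189376-102189405, minus strand: tgaggctgggcggagcaacccaggctccag

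Such a run reached within 5 bases of a listed start in 10 of the 26 members (38.5%), against 3068 of the 27025 genes in the table (11.4%). These counts include runs that end before the start, as in Rps27l, which would not be part of a transcript from that start. A run was present in Rpl35a, which fell in HCM, and in Rpl7a and Rps10, which rose on casein. The windows of Rpl41 and Rps4x hold none, which says only that these letters are not at the starts RefSeq lists. Rps7, Rpl6 and Rpsa had no such run either and are not shown. The lines above therefore hold a run more often than the 26 members do. Other motifs were searched in the 300 bases on both strands. The letters CCGGAAG, the core that ETS factors bind, were found in 11 members (42.3%, against 9.93% of all genes), AAGATGGC, the core of the YY1 motif, in 4 members (15.4% against 3.19%), and TATAAA in 4 members (15.4% against 15.7%). The first and second of these can overlap by 3 letters. A match is a description of sequence and not evidence that a factor binds.

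The members with high signal mostly varied together across the arrays. Single members with lower signal also ranged widely, such as Rps27l (mean 7.30), whose range of 2.09 was the widest of all members, and Rps4l (mean 7.49, range 1.94). The members were divided after their values were seen into 17 with a mean above 9, called brighter here, and 16 with a mean of at most 9. For each array the deviation of every gene from its mean over the 30 arrays was taken, and the median over the brighter members was compared with that over the 695 other genes with a mean above 9. The brighter members lay between 0.46 and 0.58 on the casein HCM arrays, between -0.04 and 0.16 on the casein wild-type arrays, between -0.39 and -0.25 on the soy HCM arrays and between -0.73 and -0.15 on the soy wild-type arrays. The casein HCM arrays were thus higher than all others, and no casein array overlapped any soy array. The other bright genes followed diet in a smaller measure, with 0.04 to 0.20 on casein HCM, -0.01 to 0.22 on casein wild-type, -0.14 to -0.02 on soy HCM and -0.56 to -0.02 on soy wild-type arrays. On the casein HCM arrays every value of the brighter members lay above every value of the other bright genes. The subunits overlapped, with median deviations on the casein HCM arrays of 0.32 to 0.46 for large subunit and 0.29 to 0.42 for small subunit genes. The median standard deviation within groups was 0.131 for members and 0.137 for all genes. In whole ventricle, fewer cells of a type and less RNA per cell cannot be told apart.

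**Figure D1:**
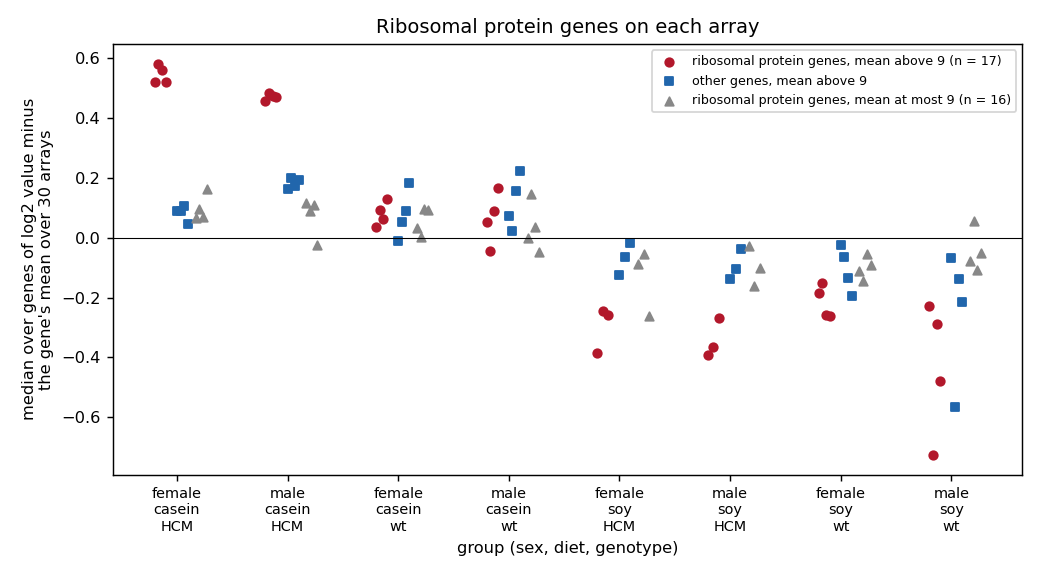
Median deviation from the gene's mean over 30 arrays (y axis, log2) on every array, by group of sex, diet and genotype (x axis), for 17 ribosomal protein genes with a mean above 9 (red circles), 695 other genes with a mean above 9 (blue squares) and 16 ribosomal protein genes with a mean of at most 9 (grey triangles). The red points are between 0.46 and 0.58 on casein HCM arrays and at most 0.16 on all others, and the lowest, at -0.73, is male soy wild-type replicate 2.

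The first comparison was HCM against wild type on casein. Ribosomal protein genes were mostly higher in HCM: 18 of 33 members rose and 3 fell, where 26.9% of all genes rose and 22.7% fell, and the median difference was 0.24 for the members and 0.01 for all genes. Of the 17 brighter members 14 rose and none fell, with a median of 0.44, whereas of the 695 other bright genes 240 rose and 206 fell, with a median of 0.03. Among the 16 members with a mean of at most 9, 4 rose and 3 fell (25% and 18.8%), with a median of 0.07. At that level 26.1% of all genes rose and 22.1% fell, so the counts of these 16 were near those shares. By subunit, 10 of 16 large subunit genes and 8 of 17 small subunit genes rose. For 16 members every HCM array was above every wild-type array, a separation found in 8.77% of all genes. With the set as a random block 16 members rose and 1, Rpl35a, fell, and Rplp0 no longer passed (adjusted p = 0.0539).

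Among the large subunit genes the largest difference was that of Rpl10a, the protein of the mobile L1 stalk at the site where spent transfer RNA leaves. Rpl10a had a lowest, median and highest value of 10.51, 10.66 and 10.80 on the casein HCM arrays, against 9.60, 9.77 and 9.99 on the casein wild-type arrays. The groups did not overlap, and the difference of 0.86 ± 0.07 is a 1.81-fold change (adjusted p = 1.63e-10). Rpl7 differed by 0.77 ± 0.07, Rpl7a by 0.75 ± 0.07 and Rpl6 by 0.66 ± 0.06, all proteins of the body of the large subunit. Rpl13a, which in human monocytes also acts outside the ribosome in a complex that silences inflammatory messenger RNAs, had 6.73, 6.86 and 7.11 on casein HCM arrays, against 5.97, 6.14 and 6.25 on casein wild-type arrays. This separation, 0.74 ± 0.06 (adjusted p = 3.75e-11), belonged to one of the members with a mean of at most 9. Rplp0, the base of the stalk that recruits elongation factors, rose by 0.18 ± 0.05 (adjusted p = 0.00274), with 12.18, 12.23 and 12.31 on HCM arrays against 11.95, 12.07 and 12.12 on wild-type arrays. Rpl35a went the other way: it fell by 0.40 ± 0.08 on the log2 scale (adjusted p = 0.000241), with 6.09, 6.36 and 6.50 on HCM arrays against 6.49, 6.74 and 7.07 on wild-type arrays.

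Small subunit genes rose as well. Rps4x, an X-linked gene whose human counterpart has a copy on the Y chromosome, had 11.44, 11.56 and 11.75 on the casein HCM arrays, against 10.78, 10.85 and 11.03 on the casein wild-type arrays. The difference was 0.69 ± 0.06 (adjusted p = 7.32e-10), without overlap. Rps10 rose by 0.63 ± 0.08, Rps7 by 0.59 ± 0.06 and Rps19 by 0.50 ± 0.05, and all 3 are genes in which mutations cause Diamond-Blackfan anaemia in humans. Rpsa, named for the laminin receptor precursor and placed at the exit of the messenger RNA channel, rose by 0.44 ± 0.06 (adjusted p = 1.93e-06). Rps3, which lines the channel where messenger RNA enters, rose by 0.26 ± 0.06 (adjusted p = 0.000884). Rps13 (-0.18 ± 0.07, adjusted p = 0.0305) and Rps27l (-0.23 ± 0.09, adjusted p = 0.0378) fell, and neither passed with the set as a random block (adjusted p = 0.156 and 0.198).

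Markers of other cell types also moved between these groups. The mean of 6 smooth muscle and pericyte markers had a median of 7.77 (lowest 7.63) on casein HCM arrays, against 7.31 (highest 7.44) on casein wild-type arrays, with 5 of 6 higher in HCM. The mean of 6 endothelial markers was 7.67 to 7.89 on casein HCM arrays and 7.98 to 8.14 on casein wild-type arrays, with 3 of 6 lower. Of the 7 cardiomyocyte markers 3 were higher and 1 was lower. Of 7 fibroblast markers 4 were higher and 1 was lower, and of 7 macrophage markers 3 and 2. Of 6 lymphocyte markers 4 were higher and 1 was lower, and of 3 red blood cell markers none passed. The lowest value of any marker gene on any array was 4.66, near the low end of the scale, and these values do not show which markers were above background. The β-actin control probe sets, read as 3′ minus 5′ signal, gave -0.50 to 0.17 on casein HCM arrays and 0.15 to 0.44 on casein wild-type arrays. The part of these markers and controls in the results for ribosomal protein genes was not tested.

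On soy, HCM against wild type gave a different picture. Of the members 4 rose and 3 fell, where 12.3% of all genes rose and 12.7% fell, with a median of -0.02. Of the 17 brighter members 2 rose and 2 fell, with a median of -0.003, whereas the other bright genes had a median of 0.07 (157 higher, 57 lower). The members that rose were Rps27l (0.66 ± 0.10, adjusted p = 3.64e-05), Rps28 (0.35 ± 0.10, adjusted p = 0.0136), Rpl22 (0.24 ± 0.06, adjusted p = 0.0035), which in mice is needed for the development of T cells, and Rps24 (0.22 ± 0.07, adjusted p = 0.0257). Those that fell were Rpl41 (-0.30 ± 0.05, adjusted p = 0.000213), Rpl37a (-0.26 ± 0.08, adjusted p = 0.0181) and Rpl35a (-0.25 ± 0.09, adjusted p = 0.0374). The remaining 26 members did not pass. For Rpl22 alone was every HCM array above every wild-type array, a separation that 4.24% of all genes had. All 7 cardiomyocyte markers were higher in HCM on soy, with a mean of 12.16 to 12.28 on soy HCM arrays against 11.49 to 11.99 on soy wild-type arrays. In 4 of the 7 the HCM effect was lower on casein than on soy, and in 0 it was greater. Of 6 endothelial markers 3 were higher and none lower (Kdr by 1.02, Cdh5 by 0.46 and Tek by 0.34). The 18S ribosomal RNA control read 6.66 to 6.91 on soy HCM arrays and 7.19 to 8.17 on soy wild-type arrays, without overlap. The part of these shifts in the result was not tested.

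The soy counts were unsteady. With the set as a random block 1 member rose (Rps27l) and 1 fell (Rpl41). Without male soy wild-type replicate 1, 8 members rose and 5 fell, without replicate 2 of that group 3 rose and 6 fell, and without its replicate 3, 5 fell. When quantile normalization was added 3 rose and 7 fell, when arrays were centred on their medians 6 rose and 3 fell, and when they were centred on the other bright genes 1 rose and 9 fell.

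As the mean over both diets and sexes, 20 members were higher and 3 lower in HCM, where 18.7% of all genes were higher and 15.4% lower. The median was 0.17 for members and -0.001 for all genes. With quantile normalization added the counts were 16 and 5, and 10 and 1 under the random block for set. The 6 largest differences were those of Rpl7 (0.46 ± 0.05), Rpl32 (0.46 ± 0.13), Rps4x (0.42 ± 0.05), Rpl10a (0.39 ± 0.05), Rpl7a (0.36 ± 0.05) and Rpl13a (0.34 ± 0.04), and of these only Rpl32 did not pass with the random block (adjusted p = 0.104). The 3 lower genes were Rpl35a (-0.33 ± 0.06), Rps13 (-0.18 ± 0.05) and Rps27 (-0.13 ± 0.04), and Rps13 and Rps27 did not pass with the random block (adjusted p = 0.0915 and 0.228). This mean joins unlike parts: 9 of 33 members were positive and 4 negative in all 4 combinations of sex and diet. Rpl7 shows it, with 11.30, 11.36 and 11.51 on casein HCM, against 10.40, 10.59 and 10.85 on casein wild-type arrays. On soy it had 10.36, 10.47 and 10.55 in HCM, against 9.81, 10.38 and 10.46 in wild type, a difference of 0.15 ± 0.08 that did not pass (adjusted p = 0.143). Rps4x on soy had 10.67, 10.77 and 10.86 in HCM against 10.14, 10.73 and 10.82 in wild type, again with overlap (0.14 ± 0.07, adjusted p = 0.115).

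**Figure D2:**
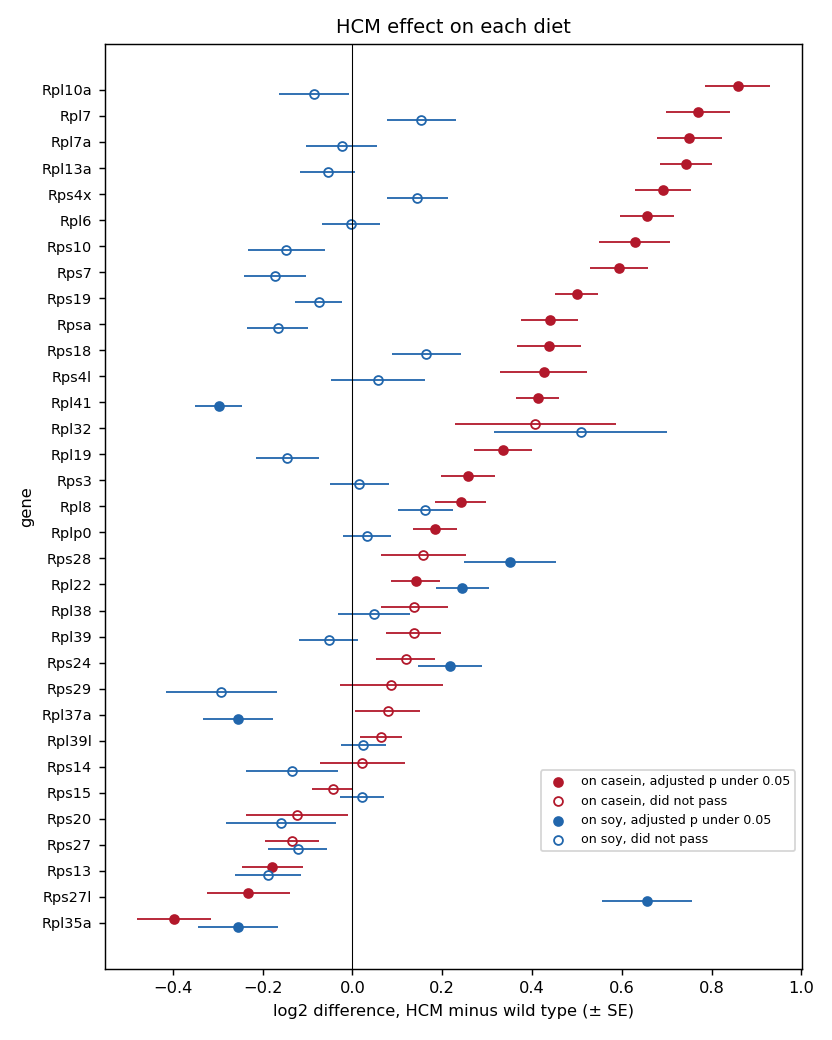
Difference between HCM and wild type (x axis, log2, with standard error) for each of the 33 genes (rows), on casein (red) and on soy (blue); filled points had an adjusted p under 0.05. Rpl10a is at 0.86 on casein and -0.09 on soy, while Rps27l is at -0.23 on casein and 0.66 on soy.

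Whether HCM acted unequally under the diets was tested as its effect with casein minus its effect with soy. Of the 33 members 16 had a greater value on casein and 1 a lower one, where 25% of all genes were greater and 20.1% lower. The median was 0.24 for members and 0.03 for all genes. Among the brighter members 13 of 17 passed, all greater on casein, with a median of 0.55, whereas the other bright genes had a median of -0.04 (164 greater, 206 lower). Among the 16 members with a mean of at most 9, 3 were greater and 1 lower (18.8% and 6.25%), with a median of 0.04. At that level 25% of all genes were greater and 19.3% lower. With the set as a random block 12 members were greater and 1 lower. Large subunit genes gave 8 of 16 and small subunit genes 8 of 17 greater values.

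Rpl10a had the greatest value (0.94 ± 0.11), followed by Rpl13a (0.80 ± 0.08), Rps10 (0.78 ± 0.12), Rpl7a (0.77 ± 0.11), Rps7 (0.77 ± 0.09) and Rpl41 (0.71 ± 0.07). Rpl13a on soy had 5.79, 5.84 and 6.01 in HCM against 5.73, 5.88 and 6.12 in wild type, so the separation seen on casein was absent there. Rpl41 encodes the smallest ribosomal protein, a basic peptide at the surface between the subunits, and its HCM effect had opposite signs on the 2 diets. In females it read 13.33, 13.50, 13.40 and 13.39 on casein HCM arrays, against 12.95, 13.02, 12.97 and 12.99 on casein wild-type arrays. In males it read 13.20, 13.21, 13.27 and 13.28 on casein HCM arrays, against 12.69, 12.84, 12.92 and 12.91 on casein wild-type arrays. All HCM arrays were higher on casein, by 0.41 ± 0.05 (adjusted p = 7.81e-08). On soy the female arrays read 12.40, 12.56 and 12.49 in HCM, against 12.80, 12.78, 12.86 and 12.82 in wild type. The male arrays read 12.35, 12.45 and 12.45 in HCM, against 12.68, 12.45, 12.79 and 12.80 in wild type. Here every HCM array was below every wild-type array but 1. The male wild-type value of 12.45, from replicate 2, lay within the HCM range.

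Rps27l, a paralogue of Rps27 that p53 induces in human cells, was the member with the opposite pattern (-0.89 ± 0.14, adjusted p = 6.46e-06). On casein its female arrays read 7.59, 7.45, 7.57 and 7.60 in HCM, against 8.02, 7.89, 7.73 and 7.67 in wild type. Its male arrays on casein read 7.50 to 7.96 in HCM, against 7.85 to 8.28 in wild type, and the groups overlapped in males but not in females. On soy the female arrays read 6.92, 7.17 and 7.01 in HCM, against 6.55, 6.32, 6.23 and 6.41 in wild type, without overlap. The male arrays on soy read 7.25, 7.06 and 7.20 in HCM, against 6.51, 7.02, 6.20 and 6.32 in wild type, again without overlap, and the highest of these wild-type values was that of replicate 2. For Rps27 itself the difference of HCM effects did not pass (-0.01 ± 0.09, adjusted p = 0.918).

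**Figure D3:**
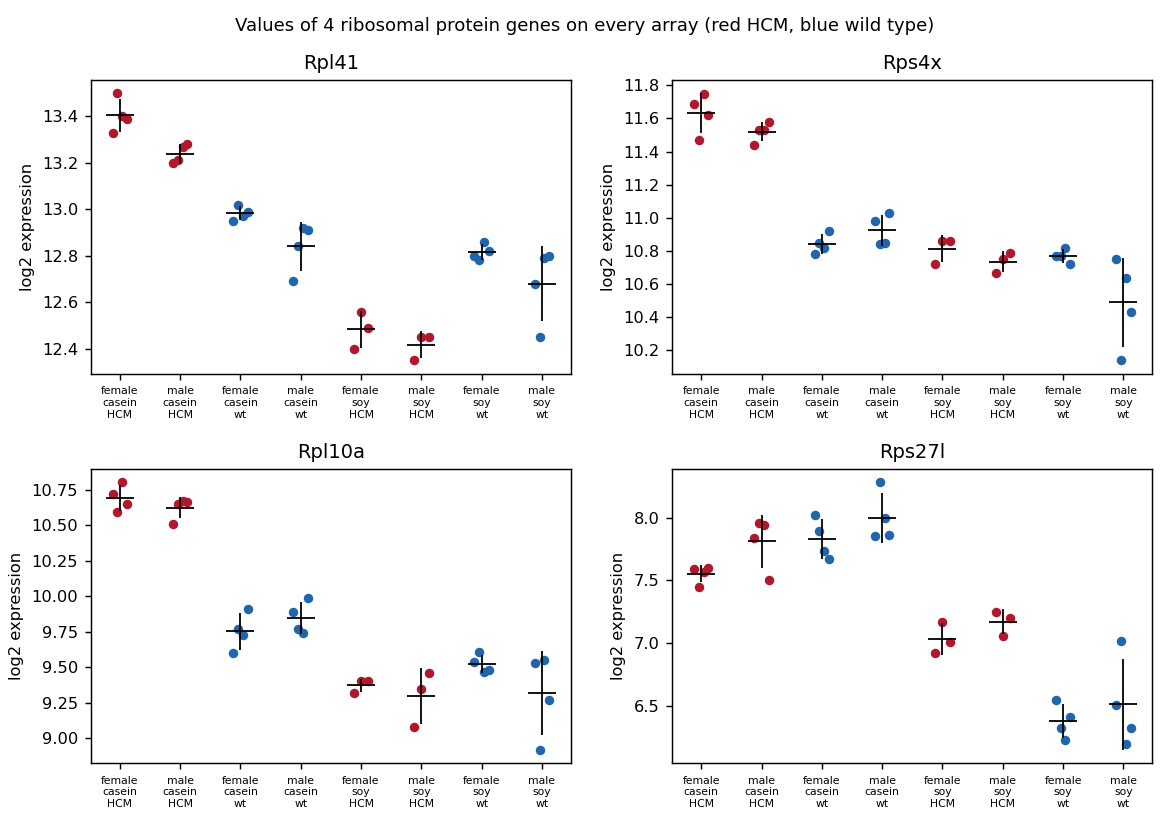
Log2 expression (y axes) of Rpl41, Rps4x, Rpl10a and Rps27l on every array by group (x axes), HCM in red and wild type in blue, with group means (horizontal lines) ± SD (vertical lines). Rpl41, Rps4x and Rpl10a are highest on the casein HCM arrays, whereas Rps27l is highest in casein wild type and lowest in soy wild type.

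The diet comparison asked how casein-fed mice differed from soy-fed mice. As the mean over genotypes and sexes, 25 members were higher on casein and 4 lower, where 30.9% of all genes were higher and 32% lower. The median was 0.52 for members and -0.004 for all genes. Among the 16 members with a mean of at most 9, 8 were higher and 4 lower (50% and 25%), with a median of 0.09. At that level 27.6% of all genes were higher and 33.7% lower. All 17 brighter members were higher, with a median of 0.55. Other bright genes were also mostly higher on casein (450 higher and 101 lower of 695, median 0.25). When arrays were centred on these other bright genes, which moved the median of all genes to -0.25, 21 members were higher and 8 lower, and 16 of the 17 brighter members were higher, with a median of 0.31. With the set as a random block 22 members were higher and 2 lower. All 7 cardiomyocyte markers and 5 of 6 smooth muscle and pericyte markers were higher on casein as well, and none of either list was lower. In wild type the cardiomyocyte mean was 12.17 to 12.36 on casein arrays and 11.49 to 11.99 on soy arrays. The Gapdh control probe sets, read as 3′ minus 5′ signal, gave 0.05 to 0.33 on casein wild-type arrays and -0.13 to 0.03 on soy wild-type arrays. In HCM the cardiomyocyte mean was 12.27 to 12.44 on casein arrays and 12.16 to 12.28 on soy arrays. The part of these shifts in the diet result was not tested.

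Within genotypes the diet effect had unequal size. In HCM mice 24 members were higher and 4 lower on casein (31.9% and 30.1% of all genes), with a median of 0.59. In wild-type mice 21 were higher and 2 lower (21.6% and 25.4% of all genes), with a median of 0.27. For 20 members every casein HCM array was above every soy HCM array (20.6% of all genes), and for 12 members every casein wild-type array was above every soy wild-type array (6.01% of all genes). In wild type the direction depended on the scale. Before centring, 27 members were positive and 6 negative. Centred on the other bright genes, 12 members were higher and 10 lower, and the members' median was -0.01. Among those that turned negative, Rpl13a, Rpl22, Rpl41, Rpl6 and Rps4x did not pass, and further members turned negative as well. In HCM mice 21 members were then higher and 5 lower. Under the random block for set 23 members were higher and 0 lower in HCM, and 17 higher and 0 lower in wild type. The lower count in wild type was also 0 without male soy wild-type replicate 4, male casein wild-type replicate 4 or female soy wild-type replicate 3. The difference between the diet effects in HCM and in wild type is the same quantity as the difference of HCM effects tested above.

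The largest diet differences among large subunit genes were those of Rpl10a (0.85 ± 0.05), Rpl19 (0.75 ± 0.05) and Rpl7a (0.68 ± 0.05). Rpl38, which in mouse embryos favours translation of certain Hox messenger RNAs, was higher by 0.60 ± 0.05 in the mean, 0.65 ± 0.08 in HCM and 0.56 ± 0.07 in wild type. Rplp0 was higher by 0.45 ± 0.04, and Rpsa of the small subunit by 0.39 ± 0.05. Rpl39, the other X-linked member, was higher by 0.16 ± 0.05 (adjusted p = 0.00383), but it did not pass with the random block (adjusted p = 0.0546) and its difference turned to -0.09 when arrays were centred on the other bright genes. Rpl39l, a paralogue of Rpl39 enriched in testis, was at 0.05 ± 0.03 and did not pass. Rpl32 was lower on casein by -0.51 ± 0.13 (adjusted p = 0.00141), but it was also the member that differed most between casein wild-type replicates 1 and 2 and replicates 3 and 4 (0.78 ± 0.21, adjusted p = 0.0138). Rpl35a (-0.20 ± 0.06) was lower too, but not with the random block (adjusted p = 0.0747).

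Among small subunit genes Rps4l, a copy of Rps4x, was higher on casein by 1.04 ± 0.07, Rps27l by 1.02 ± 0.07, Rps10 by 1.02 ± 0.06, Rps7 by 0.85 ± 0.05 and Rps18 by 0.85 ± 0.05. Rps7 had the smallest p of the members. It read 11.72, 11.88 and 12.01 (lowest, median and highest) on casein HCM arrays, against 10.49, 10.64 and 10.76 on soy HCM arrays. In wild type it read 11.21, 11.28 and 11.35 on casein against 10.32, 10.88 and 11.03 on soy. No casein array reached down to a soy array in either genotype, and the diet difference was 1.24 ± 0.07 in HCM and 0.47 ± 0.06 in wild type. Rps19 followed with 8.81, 8.95 and 9.03 on casein HCM arrays, against 7.92, 7.98 and 8.12 on soy HCM arrays. In wild type it read 8.27, 8.44 and 8.53 on casein, against 7.89, 8.09 and 8.18 on soy, without overlap (0.35 ± 0.05, adjusted p = 1.44e-06). Rps27 (-0.16 ± 0.04) and Rps15 (-0.13 ± 0.03) were lower on casein in the mean, though Rps27 missed the threshold with the random block (adjusted p = 0.0502). Rps13, Rps14 and Rps29 did not pass (0.08, -0.08 and -0.04).

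**Figure D4:**
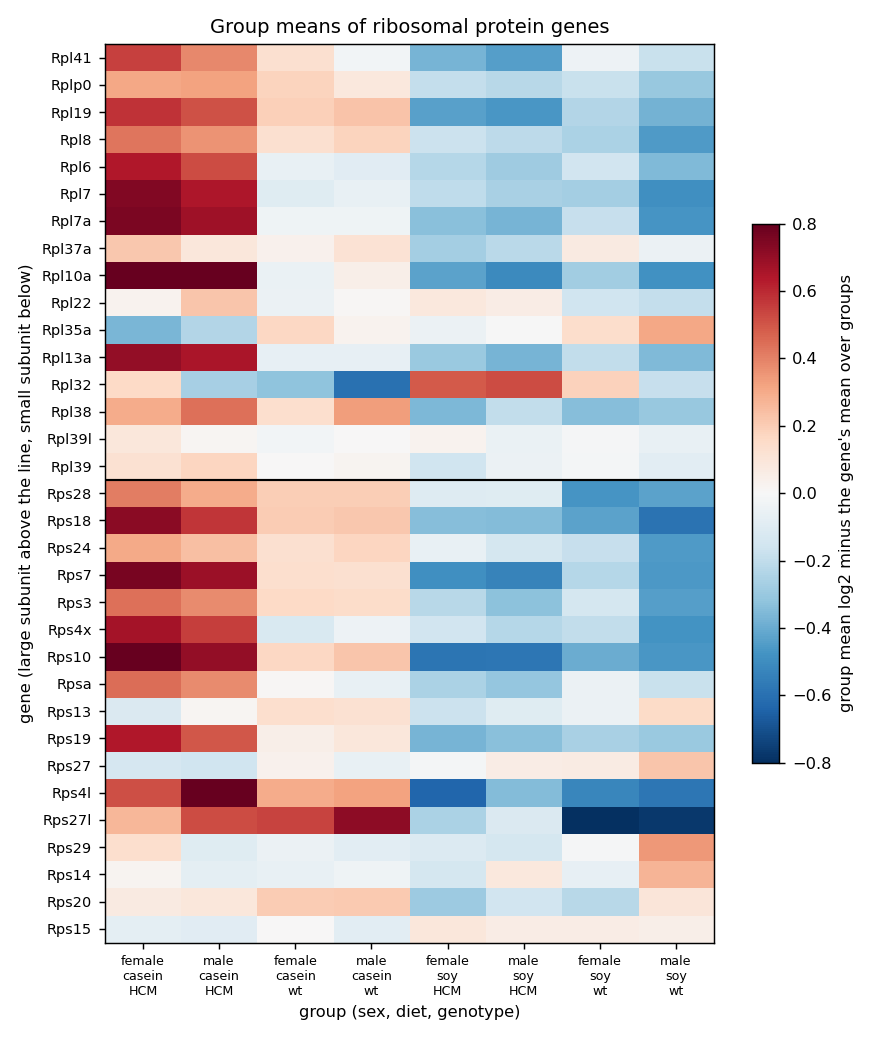
Group mean of each gene minus its mean over the 8 groups (colour, log2, red higher and blue lower), with large subunit genes above the line and small subunit genes below it, and groups by sex, diet and genotype from left to right. Most rows are red in the casein HCM columns and blue in the soy columns. Rpl32, Rpl35a and Rps27 are among the rows that run the other way. For many rows, among them Rpl13a, Rpl22, Rpl41, Rpl6 and Rps4x, the casein wild-type colours relative to soy depend on the scaling.

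Between casein wild-type replicates 1 and 2 and replicates 3 and 4, which share diet and genotype, 3 members passed. Rpl32 and Rps13 were higher and Rps19 lower in replicates 1 and 2, so that 2 members were higher and 1 lower, where 7.53% of all genes were higher and 4.94% lower. The members' counts were near these shares. None of the 17 brighter members passed, and their median was -0.04, whereas of the 695 other bright genes 21 were higher and 104 lower, with a median of -0.13. The HCM effect on casein was positive and passed in 18 members against replicates 1 and 2 alone and in 19 against replicates 3 and 4 alone.

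Females and males did not differ in any member by the adjusted test: 0 members were called in either direction, where 0.182% of all genes were higher and 0.0848% lower in females. At an unadjusted p under 0.05 limma gave 7 members, of which 4 were higher in females. The share of all genes at that unadjusted threshold was not counted, so these 7 members cannot be read against it. The smallest p belonged to Rpl41, which had 12.40, 12.95 and 13.50 (lowest, median and highest of 15 arrays) in females, against 12.35, 12.80 and 13.28 in males, a difference of 0.13 ± 0.04 (adjusted p = 0.195). Rps3 was next, with 10.71, 11.07 and 11.55 in females against 10.33, 11.03 and 11.45 in males (0.12 ± 0.04, adjusted p = 0.407). These ranges span both diets and genotypes, so their overlap does not show whether the sexes separate within a group. By the Rpl41 values given above, the sexes did not overlap in the casein groups and overlapped in the soy groups. Its female and male means were 13.41 and 13.24 in casein HCM and 12.98 and 12.84 in casein wild type. They were 12.48 and 12.41 in soy HCM and 12.81 and 12.68 in soy wild type. The X-linked Rps4x was at 0.10 ± 0.05 and Rpl39 at -0.03 ± 0.05. In the mean over strata all 17 brighter members were higher in females without passing, with a median of 0.08. The same sign was found in 375 of 712 genes with a mean above 9. Each of the 5 array sets holds both sexes. Within them the median difference of the brighter members was 0.20 in soy wild type, where the low male replicate 2 lies, and between -0.03 and 0.08 in the other sets. Higher in females were 16 of the 17 in soy wild type and in casein HCM, 14 in soy HCM, and 8 and 4 in the casein wild-type sets. These members mostly varied together, so their signs are not separate results.

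Several probe sets of a member did not always move alike. Of the 33 members 10 had several probe sets, 24 in all. Rpl10a (0.85 and 0.69), Rps28 (0.55, 0.45 and 1.10), Rpl38 (0.60 and 0.36) and Rpl7 (0.61 and 0.19) were higher on casein on each of their probe sets. Thus 4 of these 10 members passed the same way on all probe sets for diet, but only 1 of 10, Rpl10a, did for HCM on casein and 0 of 10 for the difference of HCM effects. For diet, in 5 members a further probe set passed in the opposite direction: Rpl19 (0.75 and -0.55), Rpl22 (0.10 and -0.38), Rps24 (0.42 and -0.26), Rps4l (1.04 and -0.27) and Rps4x (0.53 and -0.41). Rps4x has 5 probe sets, and its pair gives only the brightest and 1 that passed in the opposite direction. For HCM on casein the same happened in Rpl19, Rpl22, Rps28, Rps4l and Rps4x, and for the mean HCM effect in Rpl22, Rps24 and Rps4l. For Rpl7 the second probe set did not pass on casein (0.05, adjusted p = 0.709). Of the 47 probe sets 5 have the ending f or s, which Affymetrix gives to sets shared by related sequences. They include those that stand for Rpl41, Rpl7, Rps28 and Rps4l. A further 10 have the ending i or r, which marks incomplete sets or relaxed rules of probe choice. Ribosomal protein genes have many processed pseudogenes and close copies, and any member may share signal with them. The probe sets that stand for Rpl7 and Rps24 cite the same source sequence in the platform annotation, so 1 of these names is uncertain.

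**Figure D5:**
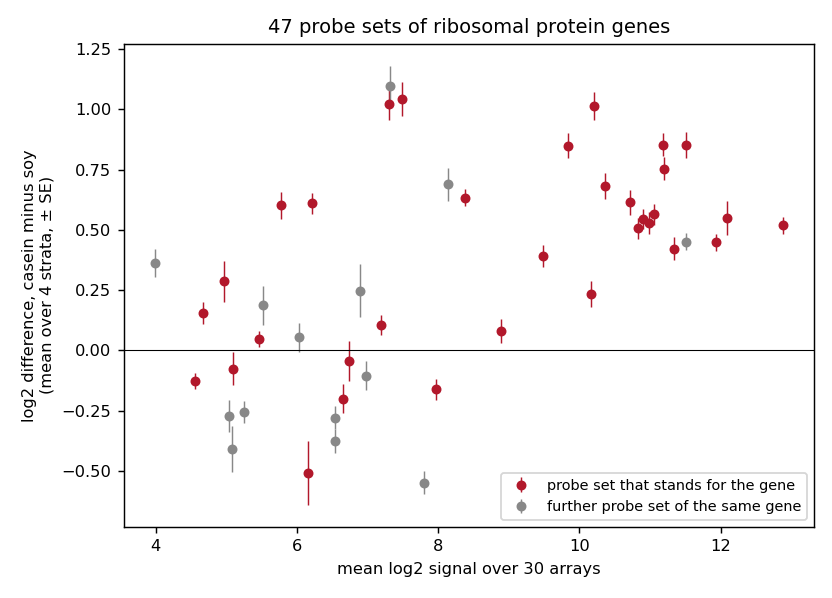
Difference between casein and soy (y axis, log2, with standard error) against mean signal over 30 arrays (x axis, log2) for the 47 probe sets, those that stand for a gene in red and further probe sets of the same genes in grey. All red points above 9 lie above 0, between 0.23 and 1.02, while grey points reach down to -0.55.

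The 38 probe sets that join a ribosomal protein symbol to other symbols were counted without names, an addition made after the data were seen. On casein 25 were higher and 7 lower in HCM (25% and 24% of all 12422 probe sets), and on soy 6 and 3 (12.3% and 12.3%). Between diets 32 were higher on casein and 2 lower (29% and 33.3%), and the difference of HCM effects was greater with casein in 25 and lower in 4 (23.9% and 21.3%). They followed the members in these counts, but they may measure the same or related transcripts and are no independent evidence.

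Other genes of the translation machinery were counted from lists of known genes. Of all genes 30.9% were higher and 32% lower on casein, 18.7% and 15.4% in the mean HCM effect, 26.9% and 22.7% for HCM on casein, and 12.3% and 12.7% for HCM on soy, and the counts of a list are to be read against these shares. The members that the name rule misses moved in part with the rest: Rps3a1, a small subunit gene, was higher on casein by 0.72 ± 0.05 and in HCM by 0.40 ± 0.05, and Rpl7l1, a paralogue of Rpl7, by 0.28 ± 0.05 and 0.16 ± 0.05. Fau, whose product is cleaved into a small subunit protein, was higher on casein by 0.15 ± 0.06 but lower in HCM by -0.25 ± 0.06. Of 7 elongation factor genes 6 were higher and 1 lower on casein, with Eef1d (0.99 ± 0.04), Eef2 (0.46 ± 0.05) and Eef1a1 (0.45 ± 0.06) leading. Of 33 initiation factor genes 18 were higher and 6 lower on casein, led by Eif3k (0.97 ± 0.04), and for HCM on casein 18 were higher and 3 lower. Of 9 further transcripts with the pyrimidine motif 7 were higher and 1 lower in the mean HCM effect. They were led by Gas5 (0.91 ± 0.11), a non-coding host of small nucleolar RNAs, and Btf3 (0.50 ± 0.06). Unlike the members, 4 of these 9 were higher and none lower for HCM on soy, and 6 were higher and none lower on casein. The difference of HCM effects was greater on casein in 3 and lower in 1 (25% and 20.1% of all genes).

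Ribosome biogenesis genes were mixed. Of 47, 25 were higher and 12 lower on casein, including Rrp1 (0.80 ± 0.06) and Npm1 (0.69 ± 0.08), both of the nucleolus, and Polr1b, a subunit of RNA polymerase I (-0.62 ± 0.06). For HCM on casein 19 were higher and 7 lower (40.4% and 14.9% of the list), and on soy 3 and 8, the last not far from the share over all genes. Of 12 genes of S6 kinase and mTOR signalling, the pathway upstream of ribosomal protein translation, 1 was higher and 6 lower in HCM on casein, and 4 were higher and none lower on soy. The HCM effect was lower on casein than on soy in 7 of these 12 and greater in 2, where 20.1% of all genes were lower and 25% greater. Those lower include Pdpk1 (-0.54 ± 0.11), Akt1 (-0.49 ± 0.13) and Akt2 (-0.46 ± 0.09), kinases that feed into mTOR. Genes of the mitochondrial ribosome, which is encoded apart from the cytosolic one, were counted too: of 61, 49 were higher and 3 lower on casein, 40 were higher and 6 lower in HCM on casein, and 1 was higher and 7 lower in HCM on soy. Mrpl12 (0.90 ± 0.07) and Mrps21 (0.88 ± 0.06) were the highest of these on casein, and Mrpl36 (0.53 ± 0.08) was the highest in the mean HCM effect.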

How the data were processed

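Left-ventricle RNA was labelled and hybridized to Affymetrix MG_U74Av2 arrays, per the labels. The authors deposited log2 expression values per probe set, which the submitters' processing notes credit to RMA and Affymetrix Expression Console. Their versions were not given in the sources used here. As usually run, RMA makes arrays alike in overall distribution, so a change shared by most genes would not be seen. No detection calls were analysed here, and the number of arrays limits the precision. Of 12488 probe sets 66 are controls and 10833 have 1 gene symbol in the platform annotation. By Entrez number 33 members matched the RefSeq gene table, each under its own symbol. The brightest probe set stood for a gene.

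One limma model (R 4.3.3, limma 3.58.1, statmod 1.5.0) with a coefficient per group of sex, diet and genotype was fitted to all 30 arrays, which left 22 residual degrees of freedom and gave a prior of 6.16. Two-sided p-values were adjusted by Benjamini-Hochberg over 8251 genes in each comparison. Effects are means over the groups named. The script was tested on simulated data. Named are the 6 highest and 6 lowest members that passed in each comparison (the 3 smallest p where none did), and set genes such as Rplp0, Rpsa and Rps19; of the other lists up to 3 leading genes were taken, and fewer are named here. Values by array are given for Rpl41 and in part for Rps27l. The other members with the 2 smallest p have their lowest, median and highest values. Values of further members were added after seeing the data. Members, lists and tests were chosen with earlier results of these data known.

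Alternatives were averaging probe sets, testing all probe sets, leaving out the 40% of genes with the lowest means, a further quantile normalization, median centring of arrays, the replicate number or the array set as a block, subsets of arrays, and leaving out each array. Centring on the genes with a mean above 9, the division by signal, the counts of probe sets with several symbols and the differences within array sets were chosen after seeing the data.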

Additional observations from a re-analysis of the deposited data

Results flagged for a closer look

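The HCM effect on casein minus the HCM effect on soy passed limma's test of the difference in 17 members. The values were 0.94 for Rpl10a, 0.80 for Rpl13a, 0.78 for Rps10, 0.77 for Rpl7a and for Rps7, 0.71 for Rpl41, 0.66 for Rpl6, 0.62 for Rpl7, 0.61 for Rpsa, 0.57 for Rps19, 0.55 for Rps4x and 0.48 for Rpl19. They were 0.37 for Rps4l, 0.33 for Rpl37a, 0.27 for Rps18 and 0.24 for Rps3, and these 4 did not pass under the random block for array set (adjusted p = 0.216, 0.135, 0.225 and 0.176). Rps27l, with -0.89, was the 1 member whose value was lower on casein.

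Rps7 on male casein HCM replicate 1 was far from the other 3 arrays of its group, with 11.72 against 11.86 on the nearest. This was 1 outlying value among 60 sets of 4 arrays examined, and chance gives about 5%.

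The control RNA Dap, which no comparison uses, averaged 8.69 on the 8 casein HCM arrays and 4.42 on the other 22. These are the arrays on which the brighter ribosomal protein genes were highest, and the part of what Dap marks in that result was not tested.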

How the results depend on the processing

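Of 154 counts of members under 13 alternatives, 129 stayed within 1.5 times the reported count and 25 did not. Under a random block for array set the counts were 10 higher and 1 lower for HCM in the mean, 1 and 1 for HCM on soy, 1 lower for HCM on casein, 2 lower for the mean diet effect, and 0 lower for diet in HCM and in wild type. Centred on the other bright genes, 1 was higher and 9 lower for HCM on soy, 1 lower for HCM on casein, 8 lower for the mean diet effect, and 12 higher and 10 lower for diet in wild type. A further quantile normalization gave 7 lower for HCM on soy and 5 lower for the HCM mean. With only the 4 groups compared, 2 were higher for HCM on soy and 0 lower for diet in wild type, which was also 0 with median centring and 1 without the casein HCM arrays. Casein wild-type replicates 1 and 2 alone gave 1 lower for diet in wild type; replicates 3 and 4 alone gave 1 lower there, 1 lower for HCM on casein and 2 lower for HCM on casein minus soy. Averaging probe sets gave 3 lower in that last comparison. The causes were not tested.

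Leaving out single arrays gave, higher and lower, 19 to 21 and 2 to 3 for HCM in the mean, 3 to 8 and 2 to 6 for HCM on soy, 17 to 20 and 1 to 4 for HCM on casein, 25 to 25 and 4 to 4 for diet, 20 to 22 and 0 to 2 for diet in wild type, 23 to 24 and 3 to 4 for diet in HCM, 0 to 0 for sex in both directions, and 13 to 17 and 1 to 2 for HCM on casein minus soy. The count of 1 lower for HCM on casein came without male casein wild-type replicate 2, male casein HCM replicate 4, female casein wild-type replicate 1 or 2, or female casein HCM replicate 2. The count of 0 lower for diet in wild type came without male soy wild-type replicate 4, male casein wild-type replicate 4 or female soy wild-type replicate 3.

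Replicate numbers did not pair the samples: deviations correlated at a median of -0.002 over 99 same-number pairs and 0.011 over 294 others. With the replicate block 20 were higher and 3 lower for HCM, 25 and 4 for diet, and 15 and 1 for HCM on casein minus soy. Signal over background was not given, and 6 members lie among the 40% of genes with the lowest means.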
